A study of Mus musculus with 12 samples.

Results

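The mir-130 and mir-301 family comprised 4 hairpins, mmu-mir-130a, mmu-mir-130b, mmu-mir-301a and mmu-mir-301b, out of 1050 miRBase hairpins with at least 1 read in the 12 small RNA libraries. The members were taken by name, and the family was chosen on measured values, since its levels in these libraries were known when it was picked. Levels and differences of the members are therefore given as a description, with standard errors. Where the number of members that passed the test over all hairpins is stated, it stands beside the share of all hairpins that passed, and nothing is read from it. Small RNA was sequenced from mature epididymal sperm of mice on a control diet (CD, 3 libraries) or a high-fat diet (HFD, 3 libraries), and from TM4 cells, a mouse Sertoli cell line (6 libraries). The mice were male C57BL6/J given either the AIN-93G diet, with 16% of energy from fat, or D12492, with 69% per the labels (the study's methods give a lower share for this diet), for 7 weeks from 4 weeks of age, and each sperm library pooled 3 mice. TM4 cells were left untreated (Ctrl, 2 libraries), given Compound C (CC, 2 libraries), an inhibitor of the energy sensor AMPK, at 10 µM for 12 h, or made to overexpress the full-length coding sequence of the ribonuclease Angiogenin from a plasmid (Ang OE, 2 libraries). No library of cells carrying an empty plasmid was analysed here. The labels did not say whether the 2 TM4 libraries of a group came from separate cultures, so the spread between them may be technical.

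A microRNA guides Argonaute proteins to messenger RNAs through its seed, the stretch near its 5′ end, and members of a family that share a seed can repress overlapping sets of targets. The miR-130 and miR-301 family is known for targeting the adipocyte regulator Pparg. miR-130a was described in endothelial cells, miR-130b in adipocytes and miR-301a in tumours with active NF-κB signalling.

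The guide strands lie on the 3′ arm of each hairpin, and the RefSeq sequences (GRCm38.p6, the mm10 build named in the labels) are shown because the shared seed defines the family and the bases behind it decide how well reads of its members can be told apart. Capitals mark bases 2 to 8, the seed.
miR-130a-3p: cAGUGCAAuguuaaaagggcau
miR-130b-3p: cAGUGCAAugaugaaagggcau
miR-301a-3p: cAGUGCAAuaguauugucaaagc
miR-301b-3p had no entry, and the mir-301b hairpin is shown instead, with the stretch most like miR-301a-3p in capitals.
mir-301b hairpin: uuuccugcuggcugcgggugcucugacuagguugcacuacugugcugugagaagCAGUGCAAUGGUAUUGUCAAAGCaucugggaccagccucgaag

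Counted from 1 at the 5′ end of the mature sequence, miR-130a-3p and miR-130b-3p differed at 2 positions (U11A and A13G). miR-301a-3p and the capitals of the mir-301b hairpin differed at 1 position (A10G). Between the mir-130 and mir-301 branches, 9 to 11 bases differed. The annotation allowed a mismatch per read, and the deposited counts were per hairpin, with both arms together.

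miR-130a-3p lay at chr2:84741116-84741137 on the minus strand, in a hairpin outside any annotated gene. miR-301a-3p lay at chr11:87113054-87113076 on the plus strand, in an intron of Ska2, a gene for a subunit of a spindle and kinetochore complex. miR-130b-3p lay at chr16:17124071-17124092 on the minus strand, and its hairpin was 257 bases from that of mir-301b, at chr16:17124400-17124496 on the same strand. Both were in an intron of the protein-coding gene 2610318N02Rik in the GENCODE annotation. No other hairpin lay within 10000 bases of mir-130a or mir-301a.

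The libraries held 11412945 to 14822686 miRNA reads in sperm and 27651384 to 35704399 in TM4 cells, which made 33.6 to 40.1% and 52.1 to 61.4% of the clean reads. Levels were expressed as reads scaled to 1000000 miRNA reads of the library (CPM). The 8 germ cell hairpins summed to 2972 to 8488 CPM in sperm, with none at 0, and to 934 to 2045 CPM in TM4 cells, with 2 to 4 at 0 in a library, mir-880 and mir-463 in all 6. In sperm, hairpins of other cell types were present, with summed levels of 25239 to 50595 CPM for the 4 red blood cell hairpins and 8946 to 14327 CPM for the 5 epithelial hairpins, none of the 9 at 0. In TM4 cells these sums were 1762 to 2857 and 1.28 to 2.38 CPM. The library labelled HFD replicate 1 stood apart from the other HFD libraries, in that the chi-square between hairpin counts, per degree of freedom, was 993 and 1241 against each of them and 256 between them, and the diet differences without it are given below.

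Family reads made 401 to 527 CPM in sperm and 2618 to 3989 CPM in TM4 cells. The order of the group means was CD (482 ± 70.0 CPM, SD, n = 3), HFD (502 ± 11.7, n = 3), Ctrl (2659 ± 58.2, n = 2), CC (2944 ± 219.7, n = 2) and Ang OE (3922 ± 94.4, n = 2). CD and HFD overlapped and did not differ beyond their spread. Ctrl and CC did not overlap in CPM but did after TMM scaling, the edgeR scaling that sets the bulk of hairpins equal between libraries. Ang OE lay above both other TM4 groups on each of the 4 scales tried, at 1.48 times Ctrl in CPM and 1.56 times after TMM scaling.

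mir-130a was the main member in sperm. The CD libraries held 470.4, 442 and 335 CPM of it, and the HFD libraries 446, 427 and 419 CPM. The HFD values all fell inside the CD range. mir-130a ranked 77th to 87th among the hairpins of a sperm library and 55th to 61st in TM4 cells, where Ctrl held 1682 and 1690.1 CPM, CC 1736 and 1929.6 CPM, and Ang OE 1530.5 and 1379 CPM. In CPM the 3 TM4 groups did not overlap, with Ang OE lowest and CC highest.

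mir-301a was the member that varied most with the sample. CD libraries held 35.1, 38.5 and 41.1 CPM and HFD libraries 25.0, 42.9 and 59.0 CPM. The HFD libraries lay both below and above the CD libraries, with the lowest value in HFD replicate 1. In TM4 cells mir-301a stood at 1009.6 and 919.8 CPM in Ctrl, 1041 and 1159.9 CPM in CC, and 2451 and 2468 CPM in Ang OE. No sperm library came near the TM4 range, and both Ang OE libraries lay above all 4 other TM4 libraries. In rank, mir-301a moved from 151st to 193rd in sperm to 68th to 78th in Ctrl and CC and to 44th and 48th in Ang OE.

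mir-130b ran the other way, with more in sperm than in TM4 cells. The levels were 19.7, 35.9 and 23.4 CPM in CD and 40.4, 19.1 and 21.4 CPM in HFD, against 6.96 and 6.83 CPM for Ctrl, 7.62 and 7.70 CPM for CC, and 5.20 and 5.28 CPM for Ang OE. The lowest sperm library was above the highest TM4 library. The top sperm values were those of HFD replicate 1 and CD replicate 2.

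mir-301b was near the lower end of what could be counted, with 14 to 27 reads in a sperm library and 39 to 116.5 in a TM4 library. CD held 1.502, 1.40 and 1.95 CPM and HFD 1.94, 1.13 and 1.62 CPM. In TM4 cells the levels were 1.38 and 1.43 CPM in Ctrl, 3.05 and 1.70 CPM in CC, and 2.81 and 3.46 CPM in Ang OE. Only Ang OE stood clear of Ctrl by more than the distance between its own libraries. The 14 reads of HFD replicate 2 gave an exact binomial 95% interval of 0.618 to 1.90 CPM, which covers counting error alone, since reads without molecular identifiers are not independent molecules.

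**Figure D1:**
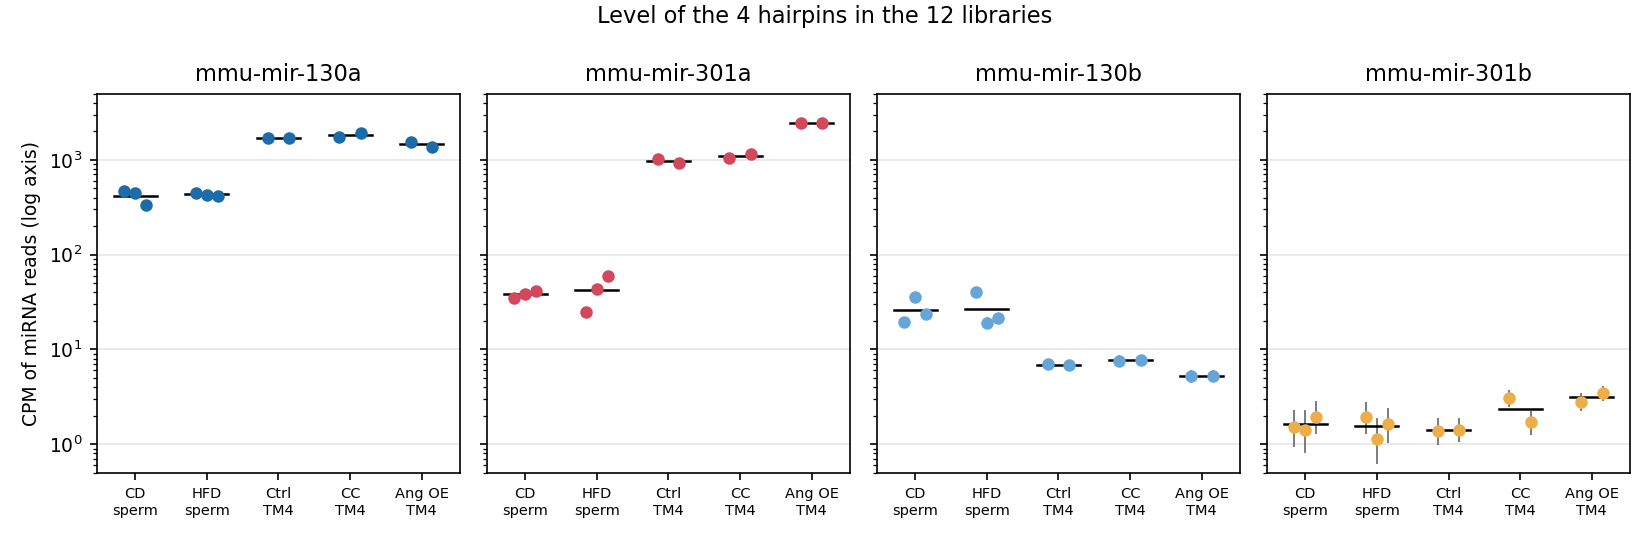
CPM of miRNA reads on a log axis for each of the 4 hairpins in the 12 libraries, with a black line at each group mean and grey bars for exact binomial 95% intervals, often smaller than the point. mir-301a spans from 25.0 CPM in a sperm library to 2468 CPM in an Ang OE library, while mir-130b is higher in every sperm library than in any TM4 library.

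The make-up of the family differed between sperm, TM4 cells and Ang OE cells. mir-130a made 86.0% ± 3.00 (SD, n = 3) of the family reads in CD and 85.9% ± 1.94 (n = 3) in HFD, 63.4% ± 1.59 (n = 2) in Ctrl, 62.3% in both CC libraries, and 37.1% ± 1.84 (n = 2) in Ang OE. mir-301a made 8.12% ± 1.89 and 8.45% ± 3.46 in CD and HFD, 36.3% ± 1.59 of Ctrl, 37.4% ± 0.0571 of CC and 62.7% ± 1.82 of Ang OE family reads. So in Ang OE mir-301a was the larger of the main pair, and in each of the 10 other libraries mir-130a was. mir-130b and mir-301b had mean shares of 5.51% and 0.348% in CD and of 0.259% and 0.0529% in Ctrl. In HFD replicate 1 mir-130b, at 7.87%, exceeded mir-301a, at 4.86%, and in the other 11 libraries it was below mir-301a.

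**Figure D2:**
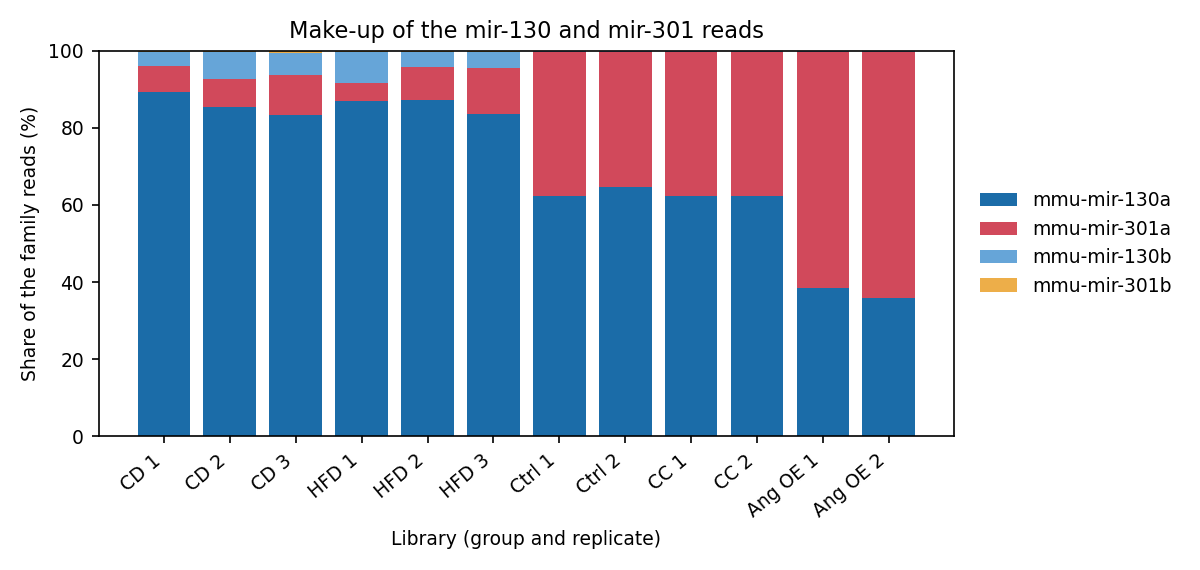
Share of the family reads (%) taken by each hairpin, one bar per library, stacked to 100%. The mir-130a part falls from 83.4 to 89.3% in sperm to 62.3 to 64.6% in Ctrl and CC and to 35.8 and 38.4% in Ang OE.

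Ratios between hairpins of a library do not depend on its scaling. The ratio of mir-301a to mir-130a reads was 0.0559 to 0.141 in the 6 sperm libraries. In TM4 cells it was 0.600 and 0.544 for the Ctrl libraries, 0.600 and 0.601 for CC, and 1.60 and 1.79 after Ang OE. CC and Ctrl overlapped, and both Ang OE libraries lay above every other library.

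The neighbours mir-130b and mir-301b did not keep a fixed ratio. There were 3.90 to 8.33 reads of mir-301b for 100 of mir-130b in sperm, 19.9 and 20.9 for Ctrl, 40.1 and 22.1 for CC, and 54.2 and 65.4 for Ang OE. Per 100 reads of mir-301a, from which the stretch in mir-301b differs at A10G, there were 2.64 to 7.76 reads of mir-301b in sperm and 0.115 to 0.293 in TM4 cells. Within TM4 cells this second ratio was 0.137 and 0.155 in Ctrl and 0.115 and 0.140 in Ang OE, so the groups overlapped while both hairpins rose in level. In 1 library the counts of both ended in the same fraction of a read, as given below. How many whole reads of mir-301a were counted to mir-301b was not tested, as the files hold counts and no read sequences.

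**Figure D3:**
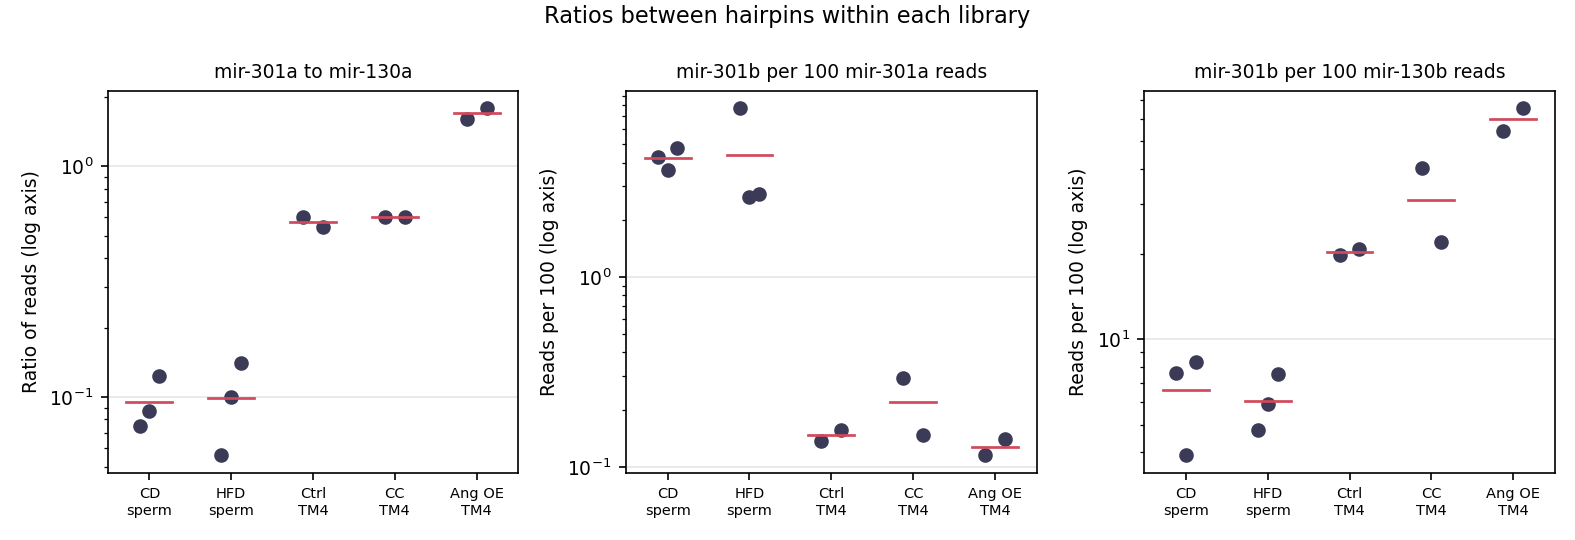
Ratios of reads within each library on log axes, points for libraries and red lines for group means: mir-301a to mir-130a, mir-301b per 100 reads of mir-301a, and mir-301b per 100 reads of mir-130b. The mir-301a to mir-130a ratio is 1.60 and 1.79 in the Ang OE libraries and at most 0.601 in the others.

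The diets were compared in sperm to ask whether feeding changes the small RNA that sperm carry. No member differed beyond the spread of the libraries. In the edgeR fit over 451 hairpins the log2 difference of HFD minus CD was −0.06 (SE 0.19) for mir-130a, −0.06 (SE 0.30) for mir-130b, 0.03 (SE 0.31) for mir-301a and −0.18 (SE 0.31) for mir-301b. The groups overlapped for each. A 95% interval of the difference from the normal distribution ran from −0.43 to 0.31 for mir-130a and from −0.56 to 0.63 for mir-301a. It is narrower than an interval with the test's own few degrees of freedom would be. With Benjamini-Hochberg adjustment edgeR's quasi-likelihood test called 0 of the 4 members and 0 hairpins in all (percent called 0), with 31 at an unadjusted p under 0.05, and DESeq2 called 8. The members' median log2 difference was −0.06 beside −0.01 over all hairpins tested. Sized by miRNA reads without TMM scaling the latter was 0.10, and sized by clean reads other than rRNA 0.19.

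HFD replicate 1 held the lowest mir-301a and the highest mir-130b. It also held the highest sum of the 3 white blood cell hairpins mir-142a, mir-223 and mir-150, at 1422 CPM against 780 and 917 CPM in the other HFD libraries and 580 to 676 CPM in CD, so that every HFD library lay above every CD library. Its red blood cell sum was the highest in sperm, at 50595 CPM. Its sums of the 5 epithelial hairpins, at 8946 CPM, and of the 6 smooth muscle hairpins, at 30652 CPM, were the lowest. No marker was at 0. The smooth muscle sum was nearly all mir-143, with a mean of 586465 reads in a sperm library against 5180 for mir-145a. CD replicate 2, the next in mir-130b, held the highest sum of the 8 germ cell hairpins, at 8488 CPM against 2972 to 4860 CPM. The part of these cells in the result was not tested, and in pooled samples fewer cells of a type and less RNA per cell cannot be told apart. Without HFD replicate 1 the log2 difference was 0.39 for mir-301a, −0.36 for mir-130b, 0.0094 for mir-130a and −0.25 for mir-301b. The family's log2 ratio in CPM was 0.06 with it and 0.042 without it.

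CC was compared with untreated cells to ask what follows from inhibiting AMPK. The mean levels of the 4 members were higher in CC, by small amounts for the main pair. The log2 difference of CC minus Ctrl was 0.13 (SE 0.10) for mir-130a, 0.16 (SE 0.16) for mir-130b, 0.20 (SE 0.10) for mir-301a and 0.77 (SE 0.29) for mir-301b. The 2 libraries of each group did not overlap in CPM for any member. The share of all hairpins that did not overlap was not counted, so nothing is read from this. After TMM scaling the family levels of CC and Ctrl overlapped. The test called 0 of the 4 members beside 22 of 533 hairpins (4.13%, 12 higher and 10 lower), and 94 hairpins had an unadjusted p under 0.05. DESeq2 called 28 hairpins and none of the members. With the replicate number as a block mir-301b passed, as given below with the hairpins called in all. The members' median was 0.18 and that of all hairpins −0.03. The difference of mir-301b rested on CC replicate 1, with 93 reads against 47 in CC replicate 2, and without it was 0.24. Without either CC library the test called 0 hairpins in all.

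Ang OE was compared with the same Ctrl libraries to ask what the ribonuclease does to small RNA in these cells. Both mir-301 hairpins were higher, and the mir-130 branch lay near the median of all hairpins. In Ang OE mir-301b held 91 and 116.5 reads against 79251 and 83212.5 of mir-301a. The stretch in mir-301b differs from miR-301a-3p at 1 position. Whether mir-301b rose apart from mir-301a was not tested, as said above for reads counted to both. mir-301a had a log2 difference of 1.63 (SE 0.10), or 3.09-fold after TMM scaling and 2.55-fold in CPM, and ranked 20th of 533 hairpins by size. mir-301b had 1.42 (SE 0.28), or 2.69-fold and 2.23-fold, and ranked 37th. mir-130a had 0.06 (SE 0.10), the same as the median over all hairpins, 0.06, and mir-130b had −0.12 (SE 0.16). In CPM mir-130a was 1.16 times lower in Ang OE than in Ctrl without overlap, so its direction turned with the scaling.

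The test called 2 of the 4 members, mir-301a and mir-301b, beside 204 of 533 hairpins (38.3%). Of the 204, 129 were higher and 75 lower. The members' median log2 difference of 0.74 fell between the 2 branches, at no member's own value, beside 0.06 over all hairpins tested. With the miRNA reads as library size and no TMM scaling, 81 were higher and 139 lower, and the median over hairpins moved from 0.06 to −0.21. On that scale mir-301a was 1.35 and mir-301b 1.15. The difference of mir-301a lay between 1.35 and 1.67 over 15 alternative fits, and that of mir-301b between 1.15 and 1.51 over the 14 that held it.

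Among the fixed cell type lists, the 6 smooth muscle hairpins summed to 94556 and 129039 CPM in Ang OE. The 4 other TM4 libraries held 49715 to 73465 CPM. This sum was nearly all mir-143, with a mean of 2350937 reads in a TM4 library. mir-145a had a mean of 40038 reads, and mir-133a-1 and mir-133a-2 of 7.33 each. The 8 germ cell hairpins summed to 2045 and 1932 CPM in Ang OE against 934 to 1050 CPM. The 4 red blood cell hairpins were lower, at 1784 and 1762 CPM against 1879 to 2857 CPM, as were the 3 white blood cell hairpins, at 2.23 and 2.82 CPM against 3.00 to 4.30 CPM, and the 5 epithelial hairpins overlapped. Of the smooth muscle hairpins up to 2 were at 0 in a TM4 library, of the germ cell hairpins up to 4, of the epithelial hairpins up to 3, and of each blood cell list up to 1. The Ang OE libraries also stood apart in composition, with rRNA at 5.92 and 6.35% of clean reads against 6.89 to 8.58% in the 4 other TM4 libraries, and miRNA at 61.4 and 57.9% against 52.1 to 55.8%. The part of these values in the difference of mir-301a was not tested. The study's methods adjusted the cell line data for batches of sample preparation, which the labels do not give, so a batch and the treatment cannot be told apart in these TM4 differences.

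Ang OE and CC were compared directly, since each shares its Ctrl libraries with the other. mir-301a had a log2 difference of Ang OE minus CC of 1.43 (SE 0.10), mir-301b of 0.66 (SE 0.26) with overlapping libraries, mir-130a of −0.07 (SE 0.10) and mir-130b of −0.28 (SE 0.16). With the replicate number as a block mir-301b passed, as given below with the hairpins called in all. The median was 0.30 over the members, which had both signs, and 0.07 over all hairpins. The test called 1 of the 4 members, mir-301a, beside 221 of 533 hairpins (41.5%), of which 140 were higher and 81 lower. With miRNA reads as library size these became 83 and 143, and mir-130a was then at −0.33 and mir-130b at −0.55, both past the threshold. The difference of mir-301b was 1.13 without CC replicate 1 and 0.30 without CC replicate 2.

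CD sperm and Ctrl TM4 cells differ in tissue, culture and preparation, which cannot be told apart. mir-301a was 25.2 times lower in sperm in CPM and mir-130a 4.06 times lower, while mir-130b was 3.82 times higher and mir-301b 1.15 times, with overlapping libraries. In the fit of all 12 libraries the log2 differences of CD minus Ctrl were −3.72 (SE 0.31), −1.08 (SE 0.20), 2.84 (SE 0.32) and 1.15 (SE 0.32). All 4 members were called beside 511 of 648 hairpins (78.9%, 240 higher and 271 lower), with a median of 0.03 over members of opposite directions. The split was 201 and 357 with miRNA reads as library size and 265 and 194 in DESeq2, and the median over hairpins was −0.44, −1.37 and 0.06 on the 3 scales. mir-10b alone took 433943 CPM in CD and 113678 CPM in Ctrl, which moves every other value in CPM. Directions of mir-301a, mir-130a and mir-130b were the same in each alternative fit, and that of mir-301b turned to −0.034 when libraries were sized by clean reads other than rRNA. Sized by miRNA reads, mir-301b was at 0.20 and did not pass. Without Ctrl replicate 2 mir-130a was at −0.59 and did not pass, and without CD replicate 2 or 3 it was at −0.58 and −0.51.

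**Figure D4:**
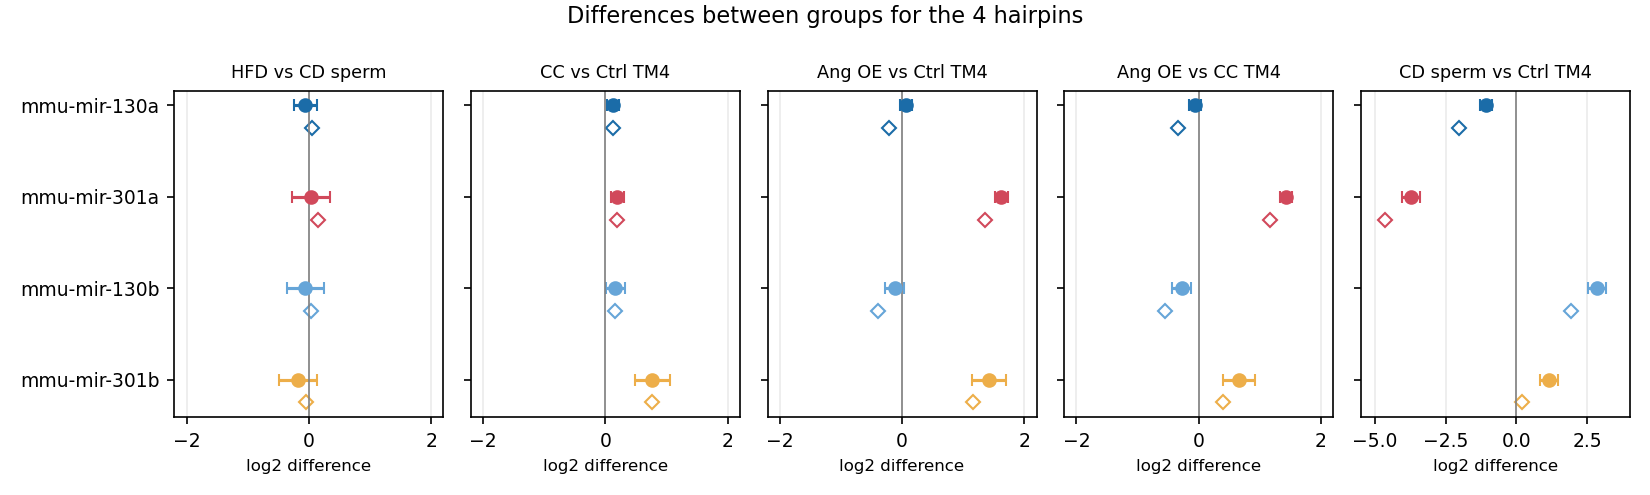
Log2 differences of the 4 hairpins in the 5 comparisons, with filled points and bars for the edgeR estimate after TMM scaling and its standard error, and open diamonds for the log2 ratio of mean CPM. The horizontal range of the last panel is wider. mir-301a stands at 1.63 in Ang OE vs Ctrl and mir-130a at 0.06, with its CPM diamond at −0.21.

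The seed was shared by 4 further mouse miRNAs in RefSeq, of which mir-6389 was counted in these libraries and miR-130c, miR-721 and miR-6341 were not analysed here. miR-6389 has the same first 15 bases as miR-130a-3p.
miR-6389: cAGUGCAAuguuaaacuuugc
It held 0.0358 to 0.135 CPM in sperm and 1.11 to 1.55 CPM in TM4 cells, or at most 0.0940 reads per 100 of mir-130a. A read that matches several hairpins is divided among them. The counts of mir-130a and mir-6389 both ended in 0.5 in 9 of the 12 libraries, as a divided read would leave. In the other libraries both counts were whole. Sharing was not tested, as no read sequences were available. mir-130b had no fractions of a read in any library, and mir-301a and mir-301b had them in 1 library each, Ang OE replicate 2, with 83212.5 and 116.5 reads and the same fraction of 0.5.

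The hexamer GUGCAA of the seed also begins at base 2 of the mir-19 miRNAs, encoded in clusters known for promoting cell growth, where it is shifted by a base.
miR-19a-3p: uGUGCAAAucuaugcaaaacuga
These 3 hairpins are not members and were tested in the same fits. mir-19a held 82.8 and 74.4 CPM in Ctrl, 69.9 and 67.7 CPM in CC, and 140.9 and 135 CPM in Ang OE. Both Ang OE libraries were above all other TM4 libraries. The log2 difference of mir-19a from Ctrl was 1.09 (SE 0.12, edgeR adjusted p = 2.16e-06). In that comparison 204 of 533 hairpins (38.3%) were called. With 2 libraries a group, a batch and the treatment cannot be told apart here either. mir-19b-1 at 0.12 (adjusted p = 0.412) and mir-19b-2 at 0.13 (adjusted p = 0.353) did not pass. None of the 3 passed in HFD against CD or in CC against Ctrl. In sperm mir-19a held 4.88 to 12.1 CPM, and all 3 were lower in CD sperm than in Ctrl, with log2 differences of −2.34, −1.86 and −1.82.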

How the data were processed

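Small RNA libraries (TruSeq Small RNA kit) of 6 pooled sperm and 6 TM4 samples were used. According to the methods and the submitters' processing notes, the authors checked reads with FastQC 0.12.0, trimmed them with Trimmomatic 0.40 and annotated them with SPORTS1.1 on mm10, allowing a mismatch. The deposited values are estimated counts per hairpin, in which the authors' pipeline divided a read matching several hairpins, with both arms together and no normalization. Here genome-matched and unmatched reads of each hairpin were summed, and none of the family's reads were unmatched. CPM was computed over all miRNA reads, which depth fixes to within the exact binomial 95% intervals given.

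Estimated counts were rounded and fitted with edgeR 4.0.16 (quasi-likelihood test, TMM, R 4.3.3) over hairpins that reached 10 reads in no fewer than 3 sperm, or 2 TM4, libraries (2 in the fit of all libraries), and called at a Benjamini-Hochberg adjusted p under 0.05. The TM4 comparisons shared a fit of 6 libraries. Groups came from the labels. Named hairpins were the 4 members, hairpins with the same seed, hairpins with GUGCAA within bases 1 to 9, and those nearest in pattern. The members and lists were chosen with earlier results of these data known. The fits were tested on simulated counts. Alternatives included DESeq2 1.42.0, ComBat-seq (sva 3.50.0) with replicate number as batch, since the authors adjusted the cell line data with it but the labels name no batches, other library sizes, other filters and leaving out each library.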

Additional observations from a re-analysis of the deposited data

How the results depend on the processing

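Of 259 alternative values for single members, 247 kept their side of the threshold and, where called, their direction, 9 newly passed it (in Ang OE against CC mir-130a in 1 of 13 alternatives, mir-130b in 2 of 13 and mir-301b in 4 of 12, and in CC against Ctrl mir-301b in 2 of 12), 2 no longer passed (mir-130a in CD against Ctrl without Ctrl replicate 2, at −0.59, and mir-301b in CD against Ctrl sized by miRNA reads, at 0.20) and 1 turned. mir-301b in CD against Ctrl turned to −0.034 when libraries were sized by clean reads other than rRNA, and the cause was not tested. The alternatives reuse the same libraries, so nothing is read from these counts. With no library left out, the alternatives called 190 to 277 hairpins in all for Ang OE against CC (41.5% of hairpins in the main fit). For CC against Ctrl they called 24 to 39 (4.13% in the main fit). Shares of the family reads within a library do not depend on its scaling.

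The number of hairpins called changed by over 1.5 times in HFD against CD with DESeq2 (8 against 0), in CC against Ctrl with ComBat-seq (39 against 22) and the replicate block (35), and in CD against Ctrl with a minimum of 100 reads (340 against 511, fewer hairpins being tested). Leaving out a library gave 0 to 26 calls for CC against Ctrl, with 0 without CC replicate 1 or without CC replicate 2. It gave 157 to 175 for Ang OE against Ctrl, 166 to 192 for Ang OE against CC, 415 to 483 for CD against Ctrl, and 0 for HFD against CD.

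The family's log2 ratio was 0.56 for Ang OE against Ctrl and became 0.69 per clean reads without rRNA, 0.71 per all clean reads and 0.64 after TMM scaling. For Ang OE against CC it was 0.41 and became 0.54, 0.56 and 0.52, and for CD against Ctrl −2.46 and became −2.70, −2.96 and −1.52. Leaving out a library gave −0.06 to 0.13 for HFD against CD, 0.07 to 0.22 for CC against Ctrl, 0.54 to 0.59 and 0.34 to 0.49 for Ang OE against Ctrl and CC, and −2.53 to −2.35 for CD against Ctrl.

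Same-numbered libraries did not deviate together in sperm (r of −0.34, −0.24 and 0.07) or between Ctrl and CC (−0.011), and did weakly between CC and Ang OE (0.167), so the numbers were taken as shared numbers alone. With the replicate number as a block, CC against Ctrl had 35 calls, HFD against CD 0, Ang OE against Ctrl 222 and Ang OE against CC 243, and mir-301b passed in CC against Ctrl at 0.75 and in Ang OE against CC at 0.67. Between Ctrl and Ang OE the correlation was −0.110, and in a fit of those groups alone, chosen after seeing the data, the block gave 161 calls and the crossed pairing 229.

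Depth limits mir-301b most, at 14 to 27 reads in a sperm library. With 2 libraries in a TM4 group the spread is borrowed from all hairpins and groups.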

Other observations

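Over the 5 group means of log2(CPM + 1), each centred on its own mean, 157 hairpins outside the family had at least 10 CPM in every group. The root mean square difference from the summed family was 0.109 for mir-218-1, 0.127 for mir-196a-1, 0.152 for mir-199b, 0.160 for mir-218-2 and 0.203 for mir-24-2, against a median of 0.861. mir-218-1, nearest to the family, had mean levels of 18.1 CPM for CD, 19.7 for HFD, 91.3 for Ctrl, 117.9 for CC and 132 for Ang OE. mir-218 is known for targeting genes of the Slit and Robo signalling system, and mir-196a lies within the Hox gene clusters.

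The members differed in their nearest hairpins. mir-130a was closest to mir-378c (0.0837) and mir-16-1 (0.0944), and mir-130b to mir-10b (0.137) and mir-99a (0.160). mir-301a was closest to mir-196b (0.478) and mir-186 (0.539), and mir-301b to let-7g (0.217) and mir-3473f (0.257). The 1 added to CPM shrinks the differences of mir-301b, whose group means were 1.41 to 3.13 CPM. The floor of 10 CPM applied to the compared hairpins alone. mir-301b lay below it in every group and mir-130b in the TM4 groups. The median difference over all hairpins compared was 0.795 for mir-130a, 1.57 for mir-130b, 1.98 for mir-301a and 0.892 for mir-301b, so the distances of different members are not on the same footing. These are measures of likeness over 5 group means that share libraries and depth, with no test.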
